A study of Saccharomyces cerevisiae with 12 samples.

Results

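High-SAM strain YJ-06 was compared with low-SAM strain YJ-04, both Saccharomyces cerevisiae strains that carry an introduced module for the synthesis of bikaverin, a fungal pigment. Each strain was sampled at 36 h in 3 libraries of total RNA, so the comparison rests on 6 of the 12 libraries of the series. The other 6 libraries come from strains with plasmid pRS416, low-SAM YJ-08 and high-SAM YJ-09. All features of the table for the bikaverin strains with a mean of at least 1 FPKM (fragments per kilobase of feature, scaled to the reads of the library) over the 6 libraries were taken, which left 6459 of 6845 listed features and set aside 386. The culture medium, the way in which the level of S-adenosylmethionine (SAM) was raised and the origin of the replicates are not stated in the sources used here. The p-values therefore reflect the scatter of these 6 libraries, and that scatter may be of technical origin. Each group is 1 strain, so SAM cannot be told apart from any other difference between YJ-04 and YJ-06. SAM itself was not analysed here. Features that carry the names BIK1, BIK3, BIK6, BIK23, NPGA and PPT were listed only in the pRS416 table, where none exceeded 1.26 FPKM. The table for the bikaverin strains lists none of them, so the module could not be analysed in YJ-04 and YJ-06. The labels of these strains were therefore not checked against their module.

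SAM is the methyl donor of most cellular methylation and is made from methionine and ATP. Baker's yeast couples its choice of carbon source, its reserves and its rate of ribosome synthesis. With ample glucose it expresses glycolytic and ribosomal genes and represses genes for other carbon sources, and as glucose runs out it induces respiration, storage carbohydrates, stress proteins and cell wall changes. Many enzymes and transporters exist as paralogs, related genes of which one serves growth on sugar and another serves growth on poorer sources.

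Promoter windows from 250 bases before to 50 bases after the annotated gene start are shown for 4 called genes. RRP12, a ribosome export factor, rose 2.86-fold (26.6, 25.6 and 29.0 FPKM to 96.6, 74.8 and 61.3 FPKM), and RPN1, a subunit of the proteasome base, rose 1.75-fold (125, 126 and 133 FPKM to 206, 231 and 236 FPKM). MET16, for the reductase of activated sulfate, rose 3.27-fold (24.1, 27.4 and 27.2 FPKM to 79.0, 96.2 and 82.6 FPKM), and PAI3 fell 4.16-fold. They were read from the RefSeq R64 genome, the build named for the deposited values, and run 5' to 3' in the direction of the gene. Capitals mark a motif known for the gene group each belongs to, and the shares of all promoters that hold these motifs are given further down.
RRP12, ribosome biogenesis, XVI:529473-529772, plus strand, PAC element in 2 overlapping matches: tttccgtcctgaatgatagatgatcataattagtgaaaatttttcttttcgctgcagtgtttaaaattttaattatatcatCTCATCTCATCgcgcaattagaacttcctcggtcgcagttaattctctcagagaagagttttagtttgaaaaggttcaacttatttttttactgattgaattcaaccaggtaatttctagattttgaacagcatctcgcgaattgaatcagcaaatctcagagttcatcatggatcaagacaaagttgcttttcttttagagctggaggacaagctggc
RPN1, proteasome, VIII:164662-164961, minus strand, Rpn4 PACE core: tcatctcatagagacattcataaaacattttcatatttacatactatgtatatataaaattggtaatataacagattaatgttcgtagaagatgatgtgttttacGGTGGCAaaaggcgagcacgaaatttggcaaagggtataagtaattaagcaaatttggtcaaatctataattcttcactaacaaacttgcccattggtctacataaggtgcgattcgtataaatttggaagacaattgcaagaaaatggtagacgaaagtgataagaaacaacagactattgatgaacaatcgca
PAI3, stress protein, XIII:610316-610615, minus strand, stress response element: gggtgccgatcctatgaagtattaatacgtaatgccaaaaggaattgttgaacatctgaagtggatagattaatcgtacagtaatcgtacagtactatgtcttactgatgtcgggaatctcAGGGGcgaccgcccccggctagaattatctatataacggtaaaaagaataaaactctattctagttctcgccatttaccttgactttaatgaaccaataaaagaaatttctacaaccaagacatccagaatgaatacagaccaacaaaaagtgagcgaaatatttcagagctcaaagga
MET16, sulfate reduction, XVI:877583-877882, minus strand, E-box of Cbf1: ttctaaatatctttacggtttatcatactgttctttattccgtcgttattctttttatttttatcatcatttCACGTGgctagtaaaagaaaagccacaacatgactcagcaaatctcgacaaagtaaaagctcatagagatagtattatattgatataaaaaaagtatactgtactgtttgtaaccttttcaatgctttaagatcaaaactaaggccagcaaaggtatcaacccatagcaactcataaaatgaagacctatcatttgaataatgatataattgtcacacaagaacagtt

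The 6 libraries held 15.02 to 17.84 M reads in features matched to the reference. Pearson's r of log2(FPKM + 1) across the 6459 features was 0.9851 to 0.9903 within low SAM, 0.9787 to 0.9903 within high SAM and 0.8834 to 0.9005 between the groups. High-SAM replicate 1 and low-SAM replicate 3 each stood a little apart from the other two libraries of their group, and genes that rest on them are given by library below. The alpha-mating-type genes were expressed, and the 4 alpha-specific genes summed to 491 to 2069 FPKM per library. Of these MF(ALPHA)1, for the alpha pheromone precursor, was at 338 to 1707 FPKM. The 7 a-specific genes summed to 81.3 to 102 FPKM per library.

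The comparison called 3662 features (56.7% of those tested) at an adjusted p below 0.05, with 1863 higher (28.8%) and 1799 lower (27.9%) in high SAM. A gene list whose called share is near 56.7%, or whose share in a direction is near 28.8% or 27.9%, does not stand apart from the other features. These calls and all adjusted p-values below come from limma on log2(FPKM + 1) with Benjamini-Hochberg adjustment over all features, and log2 fold changes are on that scale, which understates the change of features at low levels. Called changes of at least 2-fold numbered 481 higher (7.45%) and 545 lower (8.44%). Large falls outnumbered large rises, with 153 falls against 86 rises at a log2 change of 2 or more, and 65 against 20 at 3 or more. The ranges of the 3 and 3 libraries did not overlap for 4237 features (65.6%). FPKM values are shares of a library, and in these bulk samples fewer cells of a kind and less RNA per cell cannot be told apart.

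**Figure D1:**
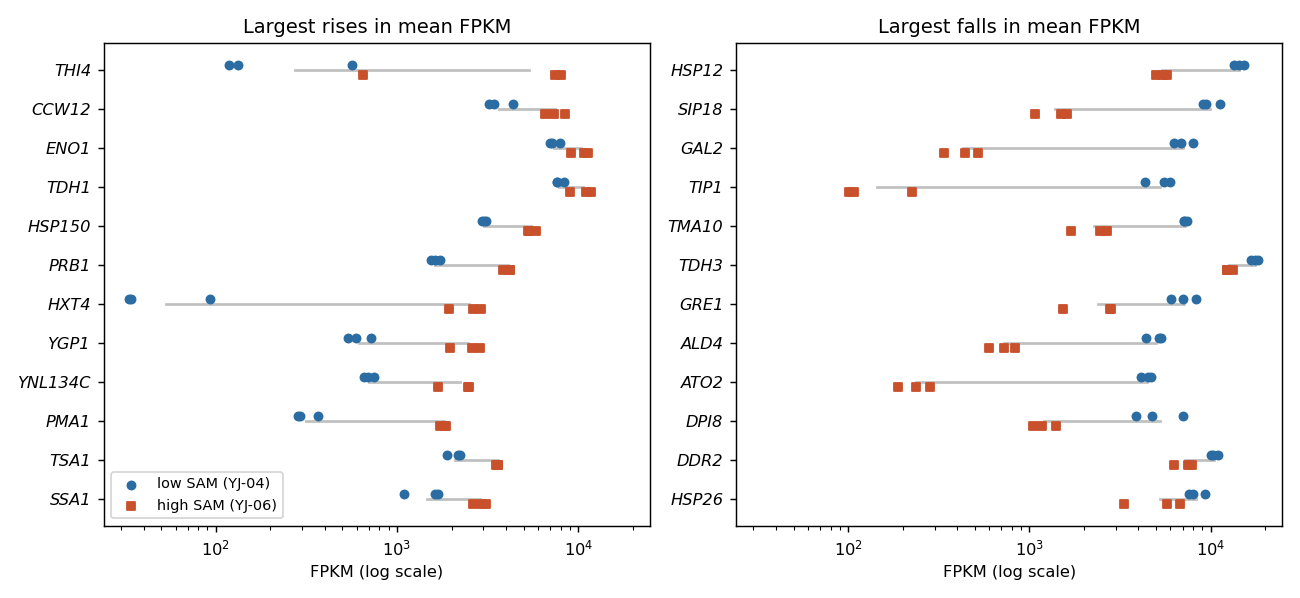
FPKM (log scale) of the 12 features with the largest rise and the 12 with the largest fall in mean FPKM, among called features without overlap between groups; each point is 1 library, circles for low SAM (YJ-04) and squares for high SAM (YJ-06), and grey lines join the group means. Stress genes such as HSP12, from 14340.1 to 5419.5 FPKM, and the permease gene GAL2, from 7072 to 432 FPKM, are among the falls.

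Sugar uptake genes moved in opposite directions. HXT4, for a high-affinity glucose transporter, stood at 34.2, 33.0 and 92.5 FPKM in the low-SAM libraries and at 1942, 2925 and 2622 FPKM in the high-SAM libraries. No low-SAM library came near the high-SAM range, and the rise was 46.9-fold (log2 fold change 5.67, SE 0.38, adjusted p = 2.2e-05). Of 21 tested hexose transporter and glucose sensor genes 5 rose and 12 fell (81.0% called, against 28.8% higher and 27.9% lower over all features), with a median log2 fold change of -0.56 against 0.01 over all features; with a minimum of 10 FPKM 3 of the 5 were counted. HXT6 and HXT7, which encode transporters for scarce glucose, fell 3.04-fold and 2.34-fold, but their sequences are 99.8% identical and the split of reads between them is uncertain. The sensor genes RGT2 and SNF3 fell 2.18-fold and 1.92-fold. The summed level of the list hardly moved, at 5992 ± 1293 FPKM in low SAM and 6071 ± 993 FPKM in high SAM. HXT3, for a low-affinity transporter, was at 176, 160.4 and 589 FPKM in low SAM and at 554, 586 and 485 FPKM in high SAM, so that low-SAM replicate 3 lay inside the high-SAM range and the gene missed the threshold (adjusted p = 0.072). The invertase gene SUC2, which cuts sucrose outside the cell, rose from 86.0 ± 6.62 to 448 ± 86.9 FPKM.

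In the galactose regulon the permease gene fell and the genes of the first enzymes did not pass the test. GAL2 (YLR081W, chromosome XII, 290212 to 291936 in R64) stood at 6301, 6902 and 8012 FPKM in low SAM and 337, 439 and 519 FPKM in high SAM, a 16.4-fold fall (log2 fold change -4.05, SE 0.17, adjusted p = 2.4e-06). The galactokinase gene GAL1 was at 6976, 7310.3 and 7429 FPKM in low SAM and 5019, 7006 and 7063 FPKM in high SAM, and the epimerase gene GAL10 at 5714, 5942 and 6732 FPKM and 4809, 7493 and 7442 FPKM; neither passed the threshold (adjusted p = 0.3 and 0.75). Both overlap the noncoding gene YNCB0008W, and the strand setting of the counts is not known. GAL7, for the uridylyltransferase, fell 1.34-fold, but missed the threshold after quantile normalization (adjusted p = 0.4) and without high-SAM replicate 2 or any 1 of the low-SAM libraries. The co-inducer gene GAL3 rose 1.69-fold and the activator gene GAL4 fell 1.65-fold. In all 1 of 9 members rose and 4 fell, a called share of 55.6% that is close to the 56.7% of all features. With quantile normalization 2 rose and 2 fell, and 2 fell without low-SAM replicate 1 or 2.

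Glycolysis kept its total while single steps shifted. The 20 genes summed to 60186 ± 702 FPKM in low SAM and 59495 ± 673 FPKM in high SAM, and 5 rose and 6 fell (55.0% called, close to the 56.7% of all features), or 9 and 3 with quantile normalization; without low-SAM replicate 2, 3 rose and 3 fell, and 3 rose without low-SAM replicate 1 or high-SAM replicate 2. PFK27, one of the pair of genes for the enzyme that makes the glycolytic activator fructose 2,6-bisphosphate, stood at 67.1, 70.3 and 120.1 FPKM in low SAM and 325, 366 and 331 FPKM in high SAM, a 3.97-fold rise. The hexokinase gene HXK1, the isoform induced on poor carbon sources, fell 2.16-fold from 3328 ± 611 to 1539.7 ± 388 FPKM. PYK2, for a minor pyruvate kinase, fell 2.14-fold. The glyceraldehyde 3-phosphate dehydrogenase genes moved apart, with TDH3 lower (17536 to 12615 FPKM) and TDH1 and TDH2 higher, but they share 90.3% to 95.8% of their sequence and are uncertain, and the calls for TDH1 and TDH3 were lost in some refits. In the pentose phosphate pathway, which supplies NADPH and ribose, 4 of 11 genes rose and 2 fell, or 4 fell without high-SAM replicate 3. The called share of 54.5% is close to the 56.7% of all features. GND1, for 6-phosphogluconate dehydrogenase, rose 3.18-fold, TKL1, for transketolase, 2.83-fold and SOL3, for 6-phosphogluconolactonase, 2.74-fold.

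Some related genes moved in opposite directions, although more pairs moved the same way. Of 148 pairs of related genes 21 had 1 member higher and the other lower, 19 had both higher, 19 both lower, 62 had 1 member past the threshold and 24 had none, and 3 had a member that was not tested. With 28.8% of all features higher and 27.9% lower, the number of pairs apart is not read as a result, and the pairs below are described one by one. ADH1, the fermentative alcohol dehydrogenase, stood at 1254, 1389 and 1313 FPKM in low SAM and 2274, 2029.7 and 1986 FPKM in high SAM, while ADH2, the enzyme that oxidises ethanol, was at 2337, 2352 and 1411 FPKM and 119, 95.5 and 91.0 FPKM. The order of the pair thus turned, from a log2 ratio of ADH1 to ADH2 of -0.59 in low SAM to 4.36 in high SAM. ACS1, the acetyl-CoA synthetase of cells on poor carbon, fell 9.57-fold from 752 ± 168 to 78.6 ± 16.4 FPKM, and ACS2, the constitutive form, rose from 159 ± 45.3 to 279 ± 74.8 FPKM. ACS2 missed the threshold in 3 of the 6 fits that left out a library, with an adjusted p of up to 0.067. BAT1, the mitochondrial branched-chain aminotransferase of growing cells, rose 3.65-fold and its cytosolic counterpart BAT2 fell 7.56-fold, so that the log2 ratio of BAT1 to BAT2 went from -2.36 to 2.39. Likewise the cytosolic thioredoxin reductase gene TRR1 rose 2.10-fold and its mitochondrial paralog TRR2 fell 2.04-fold.

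**Figure D2:**
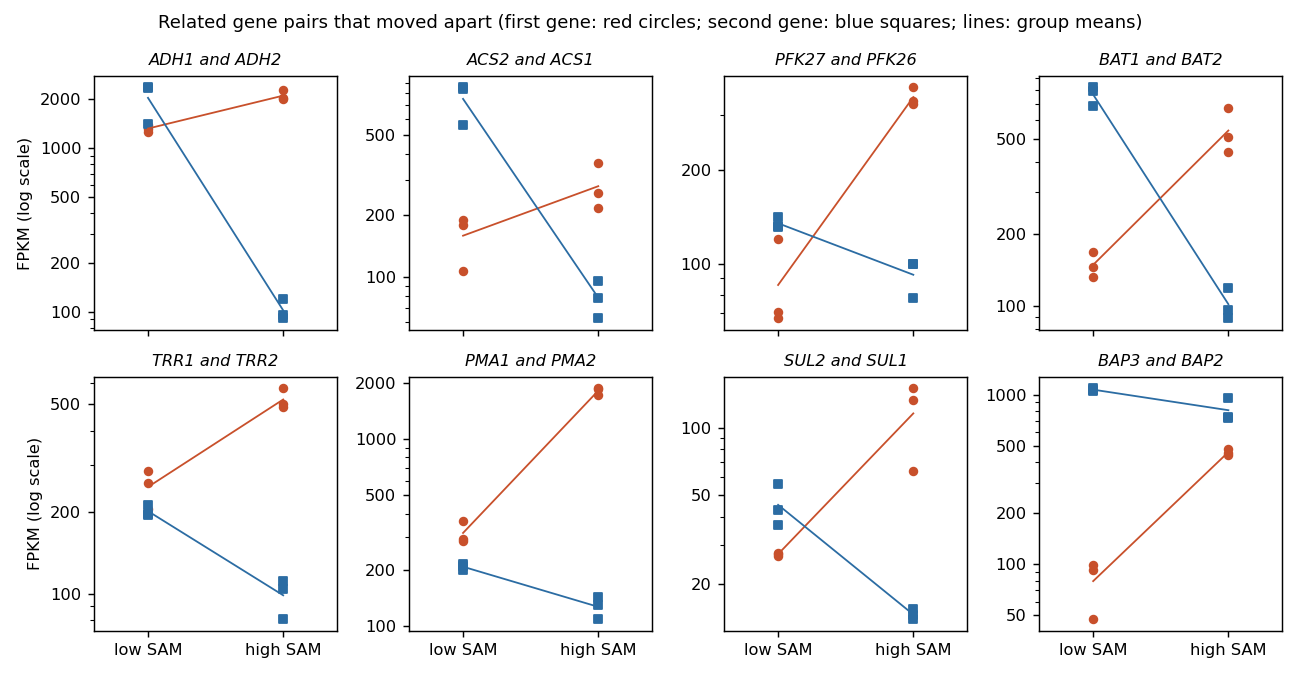
FPKM (log scale) in low and high SAM for 8 pairs of related genes whose members moved in opposite directions; points are libraries (red circles for the first gene named, blue squares for the second) and lines join the group means. The pairs ADH1 and ADH2, ACS2 and ACS1, PFK27 and PFK26, BAT1 and BAT2, and SUL2 and SUL1 change their order between the strains.

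Pumps and permeases of the plasma membrane changed in both directions. PMA1 (YGL008C, chromosome VII, 479910 to 482666), the plasma membrane proton pump that drives nutrient uptake, stood at 293, 367 and 285 FPKM in low SAM and 1866, 1845 and 1721 FPKM in high SAM. The rise was 5.75-fold (SD of 45.5 FPKM in low SAM and 78.5 FPKM in high SAM, log2 fold change 2.53, adjusted p = 3.6e-06), while its minor isoform PMA2 fell 1.64-fold. The amino acid permease gene BAP3 rose 5.76-fold and BAP2 fell 1.32-fold, a call lost with quantile normalization and in 5 of 6 fits without 1 library. OPT2, of the oligopeptide transporter family, rose 7.74-fold, and the isoform SUL2 of the sulfate permease rose 4.25-fold while SUL1 fell 3.10-fold. PDR12, for the pump that expels weak organic acids, stood at 1577, 1770.4 and 1864 FPKM in low SAM and 153, 174 and 154 FPKM in high SAM, a 10.8-fold fall, whereas the multidrug pump gene PDR5 rose 2.62-fold. Of 18 drug efflux genes 4 rose and 6 fell, and the called share of 55.6% is close to the 56.7% of all features. Among 7 polyamine transporter genes 3 rose and 2 fell, against 28.8% higher and 27.9% lower over all features. TPO2, a polyamine exporter, went from 20.9, 30.3 and 30.4 FPKM to 500.4, 617 and 607 FPKM, but it is uncertain because of TPO3 (97.2% identity), which rose 2.80-fold. All 3 genes of the acetate and ammonium transporter family fell, with ATO2 18.9-fold lower (4540.3, 4719 and 4148 FPKM to 284, 188 and 238 FPKM), ADY2 15.6-fold lower and ATO3 lower as well.

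Of 18 trehalose and glycogen genes 10 fell and 2 rose, against 27.9% lower and 28.8% higher over all features, with a median log2 fold change of -0.68. The fallers include both glycogenin genes, GLG1 (2.48-fold) and GLG2 (2.38-fold), the extracellular trehalase gene ATH1 (2.75-fold) and PIG1, for a regulator of glycogen synthase (1.87-fold). GPH1, for glycogen phosphorylase, and GDB1, for the debranching enzyme, which break glycogen down, were the 2 that rose, by 1.84-fold and 1.57-fold; the number that rose was 1 to 4 without 1 library. In glycerol metabolism 7 of 10 genes fell and 2 rose, against the same shares. The glycerol importer gene STL1 stood at 137, 135 and 149.6 FPKM in low SAM and at or below 23.0 FPKM in each high-SAM library, a 6.67-fold fall, and the glycerol kinase gene GUT1 fell 2.85-fold, while GPP2, for glycerol 3-phosphatase, rose 2.74-fold. All 5 genes of the carnitine shuttle, which carries acetyl units into mitochondria, fell, the acetyltransferase genes CAT2, YAT1 and YAT2 by 2.42-fold, 3.07-fold and 3.04-fold.

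In a list of hydrophilins and other stress proteins most genes that passed the test were lower in YJ-06. The 21 listed genes of hydrophilins and other stress proteins summed to 70981, 65965 and 74874 FPKM in low SAM and 32197, 35968 and 39069 FPKM in high SAM. Of these 12 fell and 2 rose, against 27.9% lower and 28.8% higher over all features. HSP12, a membrane-protecting protein of starved cells, fell 2.65-fold from the highest level of the group (15224, 13389.9 and 14406 FPKM to 5026, 5493 and 5739.8 FPKM). SIP18, a hydrophilin of dry cells, fell 7.14-fold and PAI3, an inhibitor of the vacuolar protease Pep4, 4.16-fold. TMA10 and GRE1 fell 3.16-fold and 2.99-fold. YGP1, a secreted glycoprotein of nutrient-limited cells, rose 3.99-fold (595, 539 and 722 FPKM to 1957, 2579.7 and 2869.6 FPKM). The call for HSP26, a small heat shock protein that fell 1.58-fold, was among those lost in other fits, under quantile normalization (adjusted p = 0.13), without the filter and in 4 of the 6 fits that left out a library. Heat shock chaperones, a separate list of 29 genes, did not share the fall. In that list 9 rose, a share near the 28.8% of all features, and 4 fell, against 27.9%. The number that fell was 2 to 10 without 1 library. Of 25 antioxidant enzyme genes 7 were higher, a share near the 28.8% of all features, and 11 were lower, against 27.9%. The catalase gene CTT1 fell 4.77-fold and the superoxide dismutase gene SOD1 1.81-fold, while the peroxiredoxin gene TSA1 rose 1.71-fold. OYE2 and OYE3, for NADPH oxidoreductases known as old yellow enzymes, rose 4.95-fold and 9.12-fold, and OYE3 had 292, 799 and 839.9 FPKM in the high-SAM libraries against 66.8, 68.4 and 76.5 FPKM in low SAM.

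**Figure D3:**
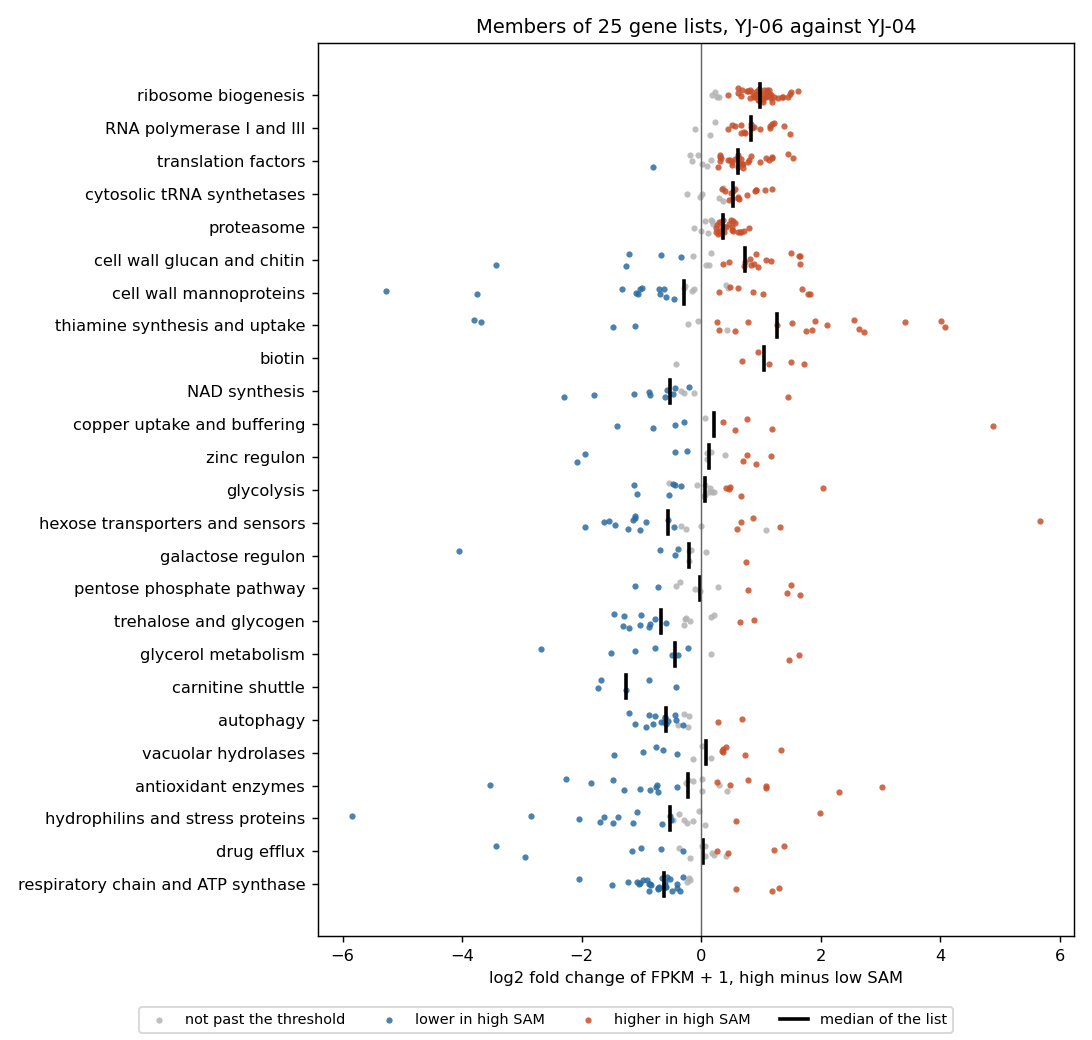
Log2 fold change (high minus low SAM, on FPKM + 1) of every tested member of 25 gene lists; points are genes, coloured where called at an adjusted p below 0.05, and black bars are list medians. Ribosome biogenesis sits at a median of 0.99 and the carnitine shuttle at -1.26, against 0.01 for all features.

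Most genes in 4 lists of the translation apparatus rose. Of 36 translation factor genes 29 rose and 1 fell (median log2 fold change 0.61), of 21 genes of RNA polymerases I and III 18 rose and 0 fell (0.83), of 22 cytosolic tRNA synthetase genes 16 rose and 0 fell (0.53), and of 50 ribosome biogenesis genes 46 rose and 0 fell (0.99). These shares stand against 28.8% of all features called higher. Without high-SAM replicate 1, 1 gene of the polymerase list and 1 of the synthetase list fell. TIF4631, for the scaffold factor eIF4G1, stood at 76.6, 80.3 and 84.6 FPKM in low SAM and 196, 188 and 169 FPKM in high SAM, and TIF5, for eIF5, rose 2.29-fold as well. RRN3, the initiation factor that recruits RNA polymerase I to ribosomal DNA, went from 30.3, 24.4 and 27.8 FPKM to 83.1, 66.1 and 72.1 FPKM. Among synthetases MES1, which charges the methionine tRNA, rose 2.30-fold, the strongest call of the list by p. TEF2, the member that fell, is a near-identical copy of TEF1, which rose, and their split is uncertain. Of 10 RNA polymerase II genes 5 rose and 1 fell (median 0.28). Ribosomal protein genes are in none of these lists and did not share this rise throughout. Neither member passed the threshold in the pairs of RPL7, RPL26, RPS10, RPS24, RPS27, RPP1 and RPP2, and RPL41A and RPL41B fell 1.66-fold and 1.42-fold. RPL2A and RPL2B both rose (log2 fold change 0.35 and 0.41, 96.2% identity), and RPS22A rose while RPS22B fell (0.82 and -0.69, 90.4% identity). Other pairs had a single called member. Among these RPS0B (0.32), RPS18B (0.32) and RPL9A (0.73, 94.7% identity to RPL9B) rose and RPS28B (-2.54) fell. CLN3, for the G1 cyclin that couples growth to cell cycle entry, rose from 69.7, 72.8 and 70.1 FPKM to 303, 329 and 328 FPKM (4.52-fold, log2 fold change 2.16, adjusted p = 9.3e-07); of 16 cyclin and start genes 6 rose and 3 fell, a called share of 56.2% against 56.7% of all features.

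Autophagy genes moved the other way. Of 21 autophagy genes 15 fell and 2 rose (median log2 fold change -0.59), against 27.9% of all features called lower. ATG34, a cargo receptor of the route that brings enzymes to the vacuole, fell 2.30-fold, ATG7, for the enzyme that activates the ubiquitin-like conjugation, 1.95-fold and ATG17, for a scaffold of the starvation complex, 1.77-fold. ATG1, the initiating kinase, rose 1.63-fold, and without low-SAM replicate 2 the list had 1 higher member. The vacuolar hydrolase genes showed no common direction, with 6 of 14 higher and 5 lower, against 28.8% and 27.9% of all features. The main protease gene PRB1 stood at 1614, 1541 and 1728 FPKM in low SAM and 3836, 4187 and 4222 FPKM in high SAM, a 2.51-fold rise.

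Cell wall genes changed in both directions. Of 24 genes for the making and remodelling of glucan and chitin 15 rose and 5 fell (median log2 fold change 0.73), against 28.8% higher and 27.9% lower over all features. FKS1, the catalytic subunit of glucan synthase, went from 58.3, 61.8 and 72.0 FPKM to 180.1, 193 and 173 FPKM, and GAS1, a glucan-elongating enzyme at the cell surface, from 189, 238 and 234 FPKM to 794, 683 and 625 FPKM. GAS5 rose 1.90-fold, while KNH1, a homolog of a glucan synthesis gene, fell 11.1-fold (316, 338 and 337 FPKM to 31.1, 30.7 and 27.4 FPKM). Of 26 mannoprotein genes 8 rose, a share near that of all features, and 12 fell (median -0.28). The difference between these lists was not tested. CCW12, a wall protein of growing buds, rose 2.03-fold to 7459.7 ± 948 FPKM, HSP150 rose 1.82-fold, and ECM33 and PST1, which are related wall proteins, rose 3.53-fold and 3.26-fold. TIP1, a mannoprotein induced by cold, fell from 5936, 5526 and 4347 FPKM to 225, 101 and 108 FPKM (36.4-fold, log2 fold change -5.27, SE 0.30, adjusted p = 9.4e-06). The flocculin gene FLO1 fell 37.9-fold and is uncertain because of FLO9 (95.1% identity).

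Most thiamine and biotin genes rose and most NAD synthesis genes fell, against 28.8% higher and 27.9% lower over all features. Thiamine pyrophosphate is the cofactor of pyruvate decarboxylase and transketolase. Of 23 thiamine genes 16 rose and 4 fell (median log2 fold change 1.26). The summed level of the list was 1391, 1517 and 2199 FPKM in low SAM and 3688, 14039 and 12603 FPKM in high SAM, and most of the sum in high-SAM replicates 2 and 3 came from THI4, the thiazole synthase. THI4 (YGR144W, chromosome VII, 780399 to 781379) had 118, 133 and 567 FPKM in low SAM and 653, 7985 and 7471 FPKM in high SAM. The ranges did not overlap, but low-SAM replicate 3 and high-SAM replicate 1 lay close to each other, and the call rests on a wide spread (log2 fold change 4.02, SE 1.01, adjusted p = 0.011; 3.41 to 5.21 without 1 library, adjusted p up to 0.044). THI22, THI13 and THI11 were likewise lower in high-SAM replicate 1 than in the other two, with THI22 at 26.9, 151 and 127 FPKM, THI13 at 40.1, 187 and 152 FPKM and THI11 at 169.6, 776 and 653 FPKM. In low SAM THI22 lay between 20.8 and 22.3 FPKM, and its call was lost in 5 of the 6 fits that left out a library (adjusted p up to 0.08). PHO3 and THI73 spread less than THI4. PHO3, the phosphatase that releases thiamine from its phosphates outside the cell, went from 20.4, 25.9 and 31.1 FPKM to 232, 356 and 264 FPKM (adjusted p = 9.6e-06), and THI73, a putative permease, rose 6.14-fold. The 4 that fell, THI5, THI12, SNO3 and SNZ2, have copies of 99.3% to 99.7% identity and are uncertain, as is THI11, which rose 21.1-fold. PDC5, a pyruvate decarboxylase, was also highest in high-SAM replicates 2 and 3, with 28.3, 30.7 and 109 FPKM in low SAM and 94.5, 975 and 720.2 FPKM in high SAM, so the groups overlap, and it missed the threshold (adjusted p = 0.019 with all libraries) in 4 of the 6 fits that left out a library.

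**Figure D4:**
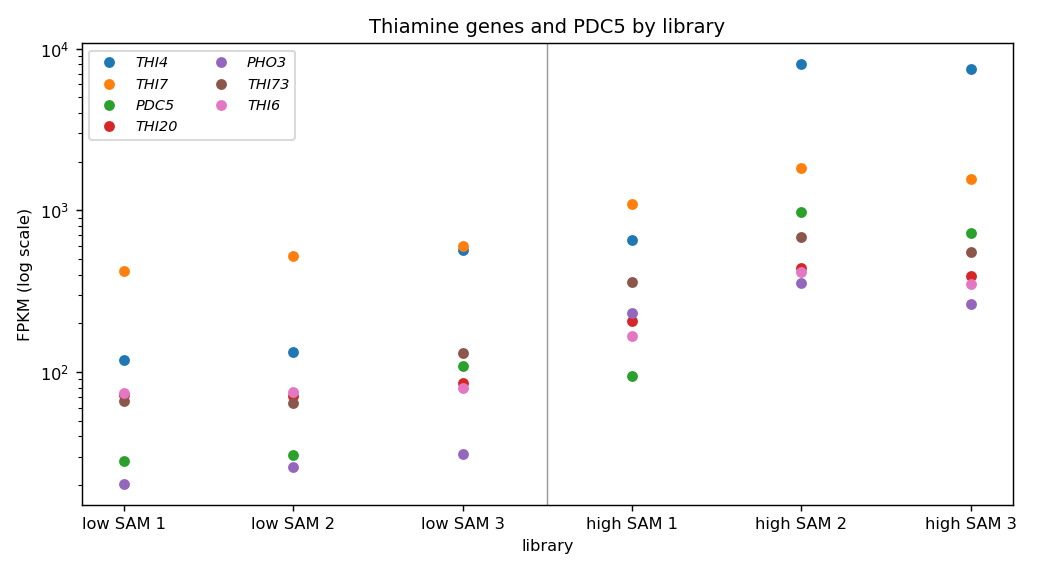
FPKM (log scale) of 6 thiamine genes and PDC5 in each of the 6 libraries; each point is 1 gene in 1 library. THI4 and PDC5 are lowest in low-SAM replicates 1 and 2 and highest in high-SAM replicates 2 and 3, while PHO3 stays between 20.4 and 31.1 FPKM in low SAM and between 232 and 356 FPKM in high SAM.

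For biotin, the cofactor of carboxylases, 5 of 6 genes rose and 0 fell, or 1 fell without high-SAM replicate 1 or with median-ratio scaling. BIO4, for dethiobiotin synthetase, went from 226, 239 and 189.6 FPKM to 722, 724 and 706 FPKM, and the biotin importer gene VHT1 and the synthesis gene BIO3 rose 2.84-fold and 2.23-fold. In NAD synthesis 10 of 14 genes fell and 1 rose, a count of lower genes that was 6 without low-SAM replicate 1 or high-SAM replicate 2. The nicotinic acid importer gene TNA1 stood at 1005, 987 and 870.1 FPKM in low SAM and 376, 132 and 142 FPKM in high SAM, with high-SAM replicate 1 above the other libraries of its group. The kynureninase gene BNA5 fell 1.82-fold, and BNA3, for kynurenine aminotransferase, was the member that rose, by 2.82-fold. Of the metal lists the iron regulon moved mostly upward, with 19 of 29 genes higher and 5 lower (median log2 fold change 0.66, against 28.8% higher and 27.9% lower over all features). FRE1, a ferric and cupric reductase of the cell surface, stood at 66.8, 69.6 and 55.5 FPKM in low SAM and 360.4, 329.9 and 278 FPKM in high SAM (5.05-fold), and FET4, a low-affinity iron importer, rose 3.52-fold. CTR3, a copper importer, went from 11.4 ± 1.44 FPKM (SD, n = 3) to 338, 369.5 and 378 FPKM (31.8-fold, adjusted p = 1.1e-07), in a list of 10 copper genes with 5 higher and 4 lower, among them the metallothionein gene CRS5, which fell 2.64-fold. ZRT1, the high-affinity zinc importer, fell 3.84-fold from 2709, 2932 and 3024 FPKM to 831, 724 and 703 FPKM, while ZRT3, which releases zinc from the vacuole, rose 1.88-fold. Of 12 zinc genes 4 rose and 4 fell, against the same shares.

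Motifs in the promoter windows were counted for 5840 tested features. The RRPE core (AAAATTT, either strand), a sequence of ribosome biogenesis promoters, was in 23.6% of all windows, in 33.4% of those higher and in 15.6% of those lower in high SAM. The PAC element (GATGAG), marked in the RRP12 window, was in 19.9% of all windows, 27.4% of those higher and 16.0% of those lower, and each of these motifs was in 48 of 50 ribosome biogenesis windows. The stress response element (AGGGG), marked in the PAI3 window, showed the reverse order with 21.9% of all, 17.2% of higher and 28.8% of lower windows. The PACE core (GGTGGCA), marked in the RPN1 window, was in 27 of 34 proteasome windows and in 2.88% of all. The E-box CACGTG, marked in the MET16 window, was in 5 of 11 windows of sulfate uptake and reduction and in 2.89% of all. The heat shock element (GAANNTTC) was in 11.8% of higher and 10.9% of lower windows against 11.9% of all. Windows of higher features had a median GC content of 35.7% and those of lower features 36.3%, whose part in the AT-rich and GC-rich motif counts was not tested. A match is a run of letters and says nothing of binding.

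**Figure D5:**
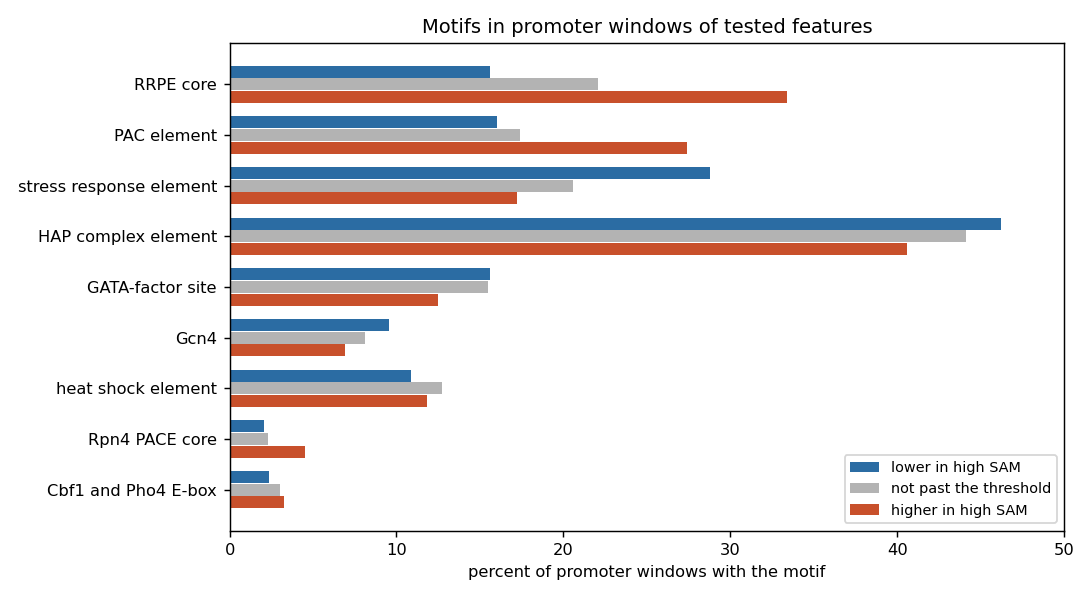
Percent of promoter windows that hold each of 9 motifs on either strand, for features lower in high SAM, not past the threshold and higher in high SAM. The RRPE core goes from 15.6% of lower to 33.4% of higher windows, and the stress response element from 28.8% to 17.2%.

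Features near chromosome ends had larger changes. Of 357 tested features within 30 kb of an end 109 were higher and 141 lower (70.0% called), and 39.2% were called with at least a 2-fold change, against 57.1% called and 13.3% for the 5588 nuclear features farther inside. The median size of the log2 fold change was 0.73 near the ends and 0.38 elsewhere. By chromosome the median log2 fold change ran from -0.19 on chromosome I, where 23 of 92 features were higher and 37 lower, to 0.10 on chromosome XIV. Some features were at or near 0 in one strain. In 23 features with at least 5 FPKM in low SAM the high-SAM mean was at most 0.1 FPKM, and 10 of them lie within 30 kb of an end. At this depth 3 reads of a 1 kb feature amount to 0.1699 to 0.1951 FPKM. A run of 4 neighbours on the left end of chromosome XV (4130 to 10766) is among them, made of YOL164W-A (165, 157 and 259 FPKM in low SAM), the sulfatase gene BDS1 (50.5, 50.7 and 49.1 FPKM), YOL163W (26.7, 31.8 and 33.0 FPKM) and YOL162W (16.9, 16.0 and 15.5 FPKM), all listed at 0 in the 3 high-SAM libraries. YHR213W-B and YHR214W form a run on chromosome VIII (540800 to 542262), also at 0 in high SAM, but copies of 99.3% and 99.8% identity on chromosome I make them uncertain. UIP3, of the DUP240 family of membrane proteins on chromosome I, had 131, 133 and 147 FPKM in low SAM and 0, 0.0919 and 0 FPKM in high SAM. OST2, for a subunit of the oligosaccharyltransferase, was at 4.66, 8.04 and 5.48 FPKM in low SAM and listed at 0 in high SAM. OST2 is essential in yeast, so its listed 0 is not read as absence of the transcript, and the same caution holds for the other features listed at 0. In the reverse direction 4 features were near 0 in low SAM. VBA3 (0.0443, 0.0433 and 0.0823 FPKM against 14.7, 20.6 and 19.5 FPKM) has a copy of 99.3% identity in VBA5 and PAU9 has copies too, so both are uncertain, and the tRNA features tV(AAC)M2 and tP(UGG)A had 5.27 to 7.26 and 3.61 to 6.63 FPKM in high SAM.

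For many features the change from the low-SAM to the high-SAM strain was not the same in the bikaverin and the pRS416 pair. Each group of the pRS416 pair is also a single strain, so SAM cannot be told apart there from other strain differences. In a fit of all 12 libraries, in which levels were compared within a table only, 3586 of 6268 features tested (57.2%) had a change that differed between the pairs. Of these 528 were called in opposite directions in each pair of strains and reached 10 FPKM in the higher group of both. In the pRS416 pair alone 77.5% of features were called, 39.1% higher and 38.4% lower. The pRS416 libraries were deeper, with scaling totals of 40.73 to 45.12 M reads against 15.38 to 17.66 M in the bikaverin libraries. The part of depth in this called share was not tested. The 4 alpha-specific genes, all higher in the bikaverin pair, were all lower in the pRS416 pair (median log2 fold change 0.99 and -2.67). Of 7 haploid-specific genes 4 rose and 1 fell in the bikaverin pair, and all 7 fell in the pRS416 pair (median 0.64 and -2.48). Of 7 a-specific genes 1 fell in the bikaverin pair, and 2 rose and 4 fell in the pRS416 pair. A difference in cell type between the strains was not tested. HXT4, PMA1 and TPO2 rose in both pairs and GAL2 and TIP1 fell in both. Their size differed, with GAL2 at -4.05 and -5.31 (difference 1.27, adjusted p = 0.00013) and CTR3 at 4.88 in the bikaverin pair and 1.23 in the pRS416 pair (difference 3.65, adjusted p = 3.8e-09). For BDS1, at -5.68 and -5.93, the difference of 0.26 did not pass the threshold (adjusted p = 0.15).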

How the data were processed

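The authors deposited FPKM values in one table per pair of strains. The submitters' processing notes name fastp, the aligner HISAT2 2.0.5, the counter featureCounts 1.5.0-p3 and the R64 build. The strand setting was not known here. Each column was assigned by the library name in the sample title, since a further label of the same samples carries different numbers. FPKM multiplied by exonic length came in whole reads for 98.5% to 98.7% of bikaverin values under 1000 reads (tolerance 0.02), which gave scaling totals of 15.38 to 17.66 M reads for YJ-04 and YJ-06 libraries, and of 40.73 to 45.12 M for the pRS416 strains. Reads summed over matched features exceeded that total in low-SAM replicate 3 and in high-SAM pRS416 replicates 2 and 3. Of the bikaverin features 6047 of 6845 were matched to the R64 reference, and 710 identifiers of the pRS416 table were restyled to join the tables.

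Features whose mean reached 1 FPKM were fitted with limma 3.58.1 (R 4.3.3, intensity trend, no replicate block) on log2(FPKM + 1), with calls at a p below 0.05 after Benjamini-Hochberg adjustment. The difference between the pairs was fitted over 12 libraries. Copies were sites of at least 90% identity over at least 50% of a gene's length elsewhere in the genome (BLAST 2.17.0). On simulated data with 200 changed features of 5945, the bikaverin fit recovered 62.7%, 98.5% and 100% at log2 changes of 0.5, 1 and 2, with 2.79% false calls. The fit of the difference, with 5900 features, recovered 32.8%, 95.5% and 100% with 5.00% false calls. The simulated counts were independent, with a fixed dispersion of 0.01 for every feature and no shift shared by the features of a library. Neither the shares recovered nor the shares of false calls therefore need hold for the real libraries, where the spread differed between features.

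The gene lists (71), related pairs (148), motifs (18) and members were chosen with earlier results of these data known. Named genes followed a rule: the 12 rises and 12 falls of largest FPKM difference without overlap, the 6 of largest log2 change each way, up to 4 called members of smallest p per list, related pairs that moved apart, the widest spreads within a group, the extremes of the difference between pairs, runs near 0 and promoters with a listed motif. OPT2, ADY2, ATO3, HXT3, HXT6, HXT7, SNF3, GAL1, GAL10, GPH1, GDB1, SOD1, OYE3, ATG1, THI5, THI13, RPL2A, RPL2B, RPL9A, RPL41A, RPL41B, RPS0B, RPS18B, RPS28B, SNZ2, OST2 and the near-0 tRNA features were named after their values were seen. Alternatives were the pseudocount, the filter, quantile and median-ratio scaling, a replicate block and leaving out each library.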

Additional observations from a re-analysis of the deposited data

Results flagged for a closer look

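These 8 genes were flagged because they were called in opposite directions in the bikaverin and pRS416 pairs, and they are the 4 largest differences of that kind in each direction. Each difference is the log2 fold change of the bikaverin pair minus that of the pRS416 pair, from the limma fit of all 12 libraries with Benjamini-Hochberg adjustment. The zinc importer gene ZRT1 fell in the bikaverin pair (2889 ± 162 to 753 ± 68.9 FPKM) and rose in the pRS416 pair (51.9 ± 1.24 to 777 ± 90.6 FPKM), a difference of -5.81 (adjusted p = 4.7e-11). SNR30, a small nucleolar RNA needed for ribosomal RNA processing, differed by -5.02, HAP4, the activating subunit of the HAP complex, by -4.97, and the NADH dehydrogenase gene NDE1 by -4.38. In the other direction the alpha pheromone gene MF(ALPHA)1 rose in the bikaverin pair (378 ± 56.1 to 1221 ± 435 FPKM) and fell in the pRS416 pair (707 ± 29.7 to 3.68 ± 0.583 FPKM), a difference of 8.89 (adjusted p = 5.2e-10). THI4 differed by 6.76 (SE 1.14), the a-factor receptor gene STE3 by 4.28 and YLR460C, uncertain because of a copy in YCR102C (94.2% identity), by 3.58. All 8 differences stayed past the threshold with their sign in each alternative run for them, although the bikaverin fall of SNR30 (log2 fold change -0.36) missed the threshold without low-SAM replicate 2, low-SAM replicate 3 or high-SAM replicate 2.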

How the results depend on the processing

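The count of called features was 3662 as reported. It was 3638 with a pseudocount of 0.1, 3678 without the filter, 3394 with a minimum of 10 FPKM, 3704 with quantile normalization, 3669 with median-ratio scaling and 3047 to 3621 without 1 library. At least 3014 calls were shared with the reported fit in each setting, all with the same sign. Whether the numbers of the replicates pair the samples is not known. Deviations of same-numbered libraries correlated at 0.03, -0.08 and 0.12, and those of differently numbered libraries at -0.16 to 0.15. With 3 libraries a side these values cannot decide the question. A replicate block gave 3506 calls. Of the genes described above HSP26, TDH1 and TDH3 had no call under the block, and 4 pentose phosphate genes were lower. The difference between the pairs gave 3586 calls as reported, 3571 with a pseudocount of 0.1, 3622 with quantile normalization, 3395 with the block and 3243 to 3584 without 1 library. No named gene changed sign; 11 of 336 lost their call in at least 1 setting other than leaving out a library and 27 when 1 library was left out, and the cause was not tested. Counts of the gene lists moved by over 1.5 times for 20 counts in settings that kept all libraries and for 44 when 1 was left out. Genes of a few reads are limited by depth, and intervals are not given for FPKM.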
